A study of Mus musculus with 6 samples.

Results

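The 10 genes described here make up the core of the transforming growth factor beta (TGF-beta) system in the deposited table: the ligands Tgfb1, Tgfb2 and Tgfb3, the receptors Tgfbr1, Tgfbr2 and Tgfbr3, the latent TGF-beta binding proteins Ltbp1, Ltbp2 and Ltbp3, and the matrix gene Tgfbi. They were chosen by symbol, and they are 10 of the 25899 genes in the table. RNA was measured in the apical portion of mandibular first molars from mice at postnatal day 7.5. The 3 mutant libraries came from Gli1-CreER;Bmpr1afl/fl mice and the 3 control libraries from littermates labelled Bmpr1afl/fl, so the loxP-flanked (floxed) alleles of the bone morphogenetic protein (BMP) receptor Bmpr1a were shared by all 6 and the labels set the groups apart by the driver alone. CreER is a recombinase that acts after tamoxifen. Here it is driven from Gli1, so that deletion is limited to cells that express Gli1 and their descendants, and the labels do not say when tamoxifen was given or whether controls received it. The strain background was mixed (C57Bl6/129S6/SvEvTac) throughout. Litter 1 supplied controls 1 and 2 and mutants 1 and 2. Litter 2 supplied control 3 and mutant 3. The labels do not say whether a library holds 1 animal or several, so p-values measure the spread between these libraries.

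TGF-beta ligands are secreted in a latent form, held by the remains of their own precursor, and a latent TGF-beta binding protein ties this complex to fibrillin and fibronectin in the matrix until proteases or integrins release the ligand. Free ligand binds the type II receptor Tgfbr2, which phosphorylates the type I receptor Tgfbr1, and Tgfbr1 phosphorylates Smad2 and Smad3, which enter the nucleus with Smad4. Tgfbr3, or betaglycan, is a co-receptor that presents ligand. In the tooth the pathway is known for its roles in odontoblast differentiation and root formation, and odontoblasts leave TGF-beta in the dentin they make.

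The libraries held 15916045 to 20609420 reads on genes, and all 10 genes passed the filter used for testing, a mean of at least 1 RPM (reads per 1000000 mapped reads). Bmpr1a, the floxed gene, averaged 136 ± 14.4 RPM over the controls and 113 ± 6.51 RPM over the mutants, and all mutants were below all controls. Means of a genotype are given here and below with the SD of its 3 libraries. Reads from exons outside the floxed part and from cells outside the lineage add to these values. The difference had an unadjusted p of 0.0910 by limma, a linear model fitted to every gene with variances shared between genes. Over the 14444 genes tested, 0 (0%) had an adjusted p under 0.05 for genotype in limma with Benjamini-Hochberg adjustment. At an unadjusted p under 0.05 there were 152 (1.05%), and limma voom on recovered reads gave 0 adjusted and 148 unadjusted. The dental mesenchyme markers were measured in 8 of 8 cases, summing to 2137 to 3404 RPM per library. Markers of other tissue were present too: the 11 enamel epithelium markers summed to between 2339 and 49721 RPM per library, with overlapping genotypes. Skeletal muscle markers were near 0. In bulk tissue of this kind, fewer cells of a type and less RNA per cell cannot be told apart.

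All 10 genes were detected well above the level of 3 reads, which was 0.0987 to 0.126 RPM. Since RPM favours long transcripts, levels of different genes were compared as RPM per kilobase of the longest annotated transcript, as the mean and SD over all 6 libraries. Tgfbi, a secreted matrix protein known as a TGF-beta target, had the highest mean level, 141 ± 51.0 RPM per kilobase. Tgfb3 followed at 92.8 ± 41.5, Tgfb1 at 75.4 ± 17.2 and Ltbp3 at 71.2 ± 18.2 RPM per kilobase. These 4 were not cleanly ordered among themselves: Tgfbi exceeded Tgfb3 in 5 of 6 libraries, Tgfb3 exceeded Tgfb1 in 4, and Tgfb1 exceeded Ltbp3 in 3. Ltbp3 exceeded the next gene, Tgfb2, in 6 of 6 libraries. Tgfb2 was at 24.2 ± 4.32, Tgfbr2 at 21.0 ± 2.14 and Ltbp1 at 18.1 ± 7.02 RPM per kilobase, and each of the first 2 exceeded the one after it in 4 of 6 libraries. Tgfbr1 was lower, at 10.5 ± 0.717 RPM per kilobase, below Ltbp1 in 6 of 6 libraries. Tgfbr3 at 3.47 ± 0.724 and Ltbp2 at 2.73 ± 0.849 RPM per kilobase were the lowest, in that order in 4 of 6 libraries. The ligands were thus above the receptors in level per length, apart from Tgfb2, which did not separate from Tgfbr2. With the length of all annotated exons in place of the longest transcript, Ltbp3 (40.8 RPM per kilobase) ranked above Tgfb1 (32.5) and the other places were kept, but some neighbours separated less. On that length Tgfb1 exceeded Tgfb2 in 5 of 6 libraries, Tgfb2 exceeded Tgfbr2 in 2 and Ltbp1 exceeded Tgfbr1 in 4.

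Promoter sequence is shown for 4 genes on which the comparisons turn: Ltbp2, whose levels separated by genotype, and Ltbp1, Ltbp3 and Tgfb1, whose levels separated by litter. A RefSeq table (GRCm38.p6) gave windows for 8 of the 10 genes, Tgfb3 and Tgfbr3 having no entry. The bases upstream of the annotated start are printed 5′ to 3′ on the gene's strand, with capitals marking motif matches on either strand. The windows are chr12:84876533-84876741 (minus) for Ltbp2, chr17:75005279-75005528 (plus) for Ltbp1, chr19:5740650-5740899 (plus) for Ltbp3 and chr7:25686752-25687001 (plus) for Tgfb1.
Ltbp2: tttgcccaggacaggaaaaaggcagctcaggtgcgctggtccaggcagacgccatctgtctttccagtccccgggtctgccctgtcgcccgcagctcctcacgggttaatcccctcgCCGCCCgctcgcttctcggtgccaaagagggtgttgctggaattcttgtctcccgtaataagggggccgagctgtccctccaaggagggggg
Ltbp1: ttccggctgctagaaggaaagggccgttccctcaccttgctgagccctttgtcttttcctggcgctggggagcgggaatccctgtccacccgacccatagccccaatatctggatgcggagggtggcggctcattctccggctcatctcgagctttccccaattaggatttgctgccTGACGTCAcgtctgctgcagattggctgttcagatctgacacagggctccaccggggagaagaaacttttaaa
Ltbp3: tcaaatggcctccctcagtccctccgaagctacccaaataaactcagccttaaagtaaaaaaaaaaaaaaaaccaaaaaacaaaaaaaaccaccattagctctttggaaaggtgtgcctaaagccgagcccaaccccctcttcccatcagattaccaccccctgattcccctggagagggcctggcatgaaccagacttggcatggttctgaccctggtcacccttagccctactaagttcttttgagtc
Tgfb1: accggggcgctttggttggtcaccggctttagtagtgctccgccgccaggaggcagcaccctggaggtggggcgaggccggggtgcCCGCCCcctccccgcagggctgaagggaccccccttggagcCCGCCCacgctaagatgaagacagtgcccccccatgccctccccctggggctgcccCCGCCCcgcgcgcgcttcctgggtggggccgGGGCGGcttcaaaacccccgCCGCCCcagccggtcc
A total of 6 motifs were searched on both strands. The promoter elements were the TATA box, spelled TATAAA, and the GC box bound by Sp1, spelled GGGCGG. The cyclic AMP response element was spelled TGACGTCA in full. For signalling factors, the Smad box of the TGF-beta pathway was searched as CAGACA and the BMP Smad site as GGCGCC. The core element of Runx factors was searched as TGTGGT on the same windows. Tgfb1 held 5 GC boxes, of which 4 read on the opposite strand, and its window was 75.2% G or C against a median of 52.4% over all windows. A GC box was found in 32.7% of all 32851 windows of 250 bases. Ltbp1 held 1 cyclic AMP response element, a motif in 1.55% of windows. The table has a second Ltbp1 window, at an annotated start inside the gene (chr17:75178531-75178780, plus, not printed), which held no such element, 2 Smad boxes and 2 Runx cores, motifs in 17.1% and 14.05% of windows. Ltbp2 held 1 GC box in a window of 209 bases, a length at which 26.5% of windows hold one. Ltbp3 held none of the 6 motifs. No motif of the 6 was shared by the printed windows of Ltbp1, Ltbp3 and Tgfb1. A match is a description of the letters and not of binding, and the absence of one says nothing of the factor.

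The genotype comparison asks whether loss of BMP receptor 1a from the Gli1 lineage altered the TGF-beta system. None of the 10 genes passed adjustment. At an unadjusted p under 0.05 there was 1 of 10, the low-level binding protein Ltbp2, which was 1.61-fold lower in mutants. Over all genes, 0.692% were lower in mutants at that threshold. The log2 change of (RPM + 1), mutant minus control, was positive for 4 genes and negative for 6, with a median of -0.08 against -0.01 over all tested genes. In limma with Benjamini-Hochberg adjustment the adjusted p was 1.00 for each of the 10. The SEs and intervals given below come from this fit without litter, so they include the spread between litters. With litter as a block the changes were the same. The SE was then 0.20 for Tgfb3 (0.52 without the block), 0.18 for Ltbp1 (0.42), 0.16 for Ltbp3 (0.30) and 0.18 for Tgfb1 (0.27). Only Ltbp2 was under an unadjusted p of 0.05 in that fit (limma p 0.00991).

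**Figure D1:**
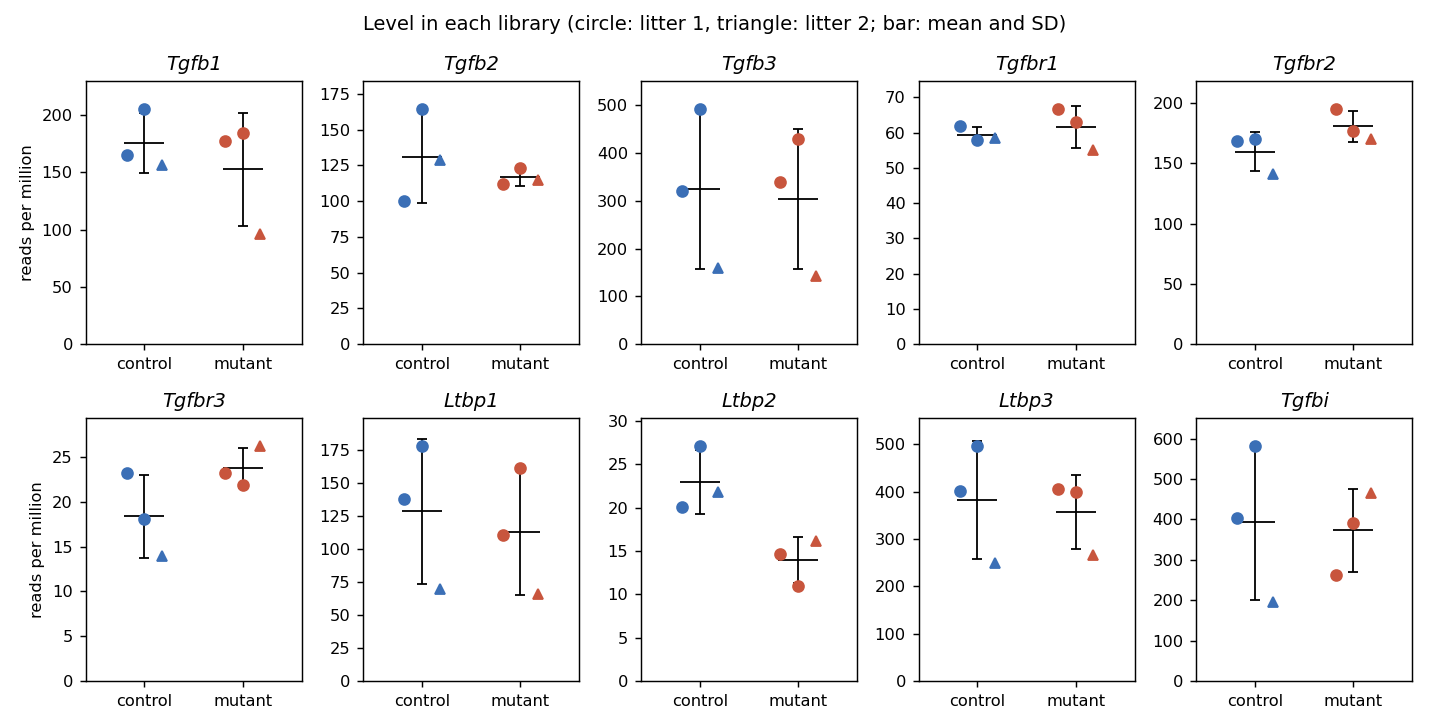
Level of each of the 10 genes in RPM (vertical axis, from 0) in the 3 control and 3 mutant libraries; circles are litter 1, triangles litter 2, and bars the mean and SD of a genotype. Mutants and controls separate for Ltbp2 (10.98 to 16.2 against 20.04 to 27.1) and Tgfbr2 (171 to 195 against 141 to 169.8), while for Tgfb3 and Ltbp1 the triangles lie below every circle.

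Among the ligands, Tgfb1 (chromosome 7, 25687002 to 25705077, plus strand, GRCm38) encodes the isoform abundant in dentin and bone. It was read at 166, 205 and 156 RPM in controls 1 to 3 and 177, 184 and 96.0 RPM in mutants 1 to 3. The low value was mutant 3, and the other 2 mutants lay within the control range. The log2 change was -0.25 (SE 0.27, 95% interval -0.89 to 0.39, unadjusted limma p 0.385). Tgfb2 (chromosome 1, 186622792 to 186705989, minus strand) encodes the isoform that depends most on betaglycan for binding. It was read at 100.2, 164 and 128 RPM in controls and 112, 123 and 115 RPM in mutants, so the mutants lay inside the control range. Its log2 change was -0.14 (SE 0.19, interval -0.59 to 0.32, unadjusted limma p 0.497). Tgfb3 (chromosome 12, 86056745 to 86079041, minus strand), known for its need in palate fusion, was read at 320.4, 492 and 159.8 RPM in controls and 339.7, 429.6 and 143 RPM in mutants. Control 3 and mutant 3, both of litter 2, were the low libraries, and the genotypes overlapped. This gave a log2 change of -0.09 (SE 0.52, interval -1.31 to 1.13, unadjusted limma p 0.867).

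Tgfbr1 and Tgfbr2 varied least of the 10 genes. Tgfbr1 (chromosome 4, 47353222 to 47414931, plus strand), the type I receptor kinase, was read at 61.8, 57.8 and 58.6 RPM in controls and 66.7, 63.0 and 55.2 RPM in mutants. Its highest and lowest libraries were 1.21-fold apart, and both were mutants. The log2 change was 0.05 (SE 0.13, interval -0.25 to 0.35, unadjusted limma p 0.714). Tgfbr2 (chromosome 9, 116084293 to 116175360, minus strand), the type II receptor that binds ligand first, was read at 168, 169.8 and 141 RPM in controls and 195, 176 and 171 RPM in mutants. Every mutant was above every control, by a narrow margin between mutant 3 and control 2. The difference came to 0.18 on the log2 scale (SE 0.14, interval -0.16 to 0.52, unadjusted limma p 0.253), and to 0.092 without control 3. Over all tested genes, 0.976% had every mutant above every control. Tgfbr3 (chromosome 5, 107106570 to 107289629, minus strand), the co-receptor betaglycan, was read at 23.2, 18.1 and 13.9 RPM in controls and 23.3, 21.9 and 26.3 RPM in mutants. Control 3 was the lowest and mutant 3 the highest library, and the genotypes overlapped at control 1. The difference came to 0.38 on the log2 scale (SE 0.20, interval -0.10 to 0.86, unadjusted limma p 0.103). Litter 1 gave 0.13 and litter 2 gave 0.87. The size of the change depended on the setting: it was 0.55 without control 1 (unadjusted limma p 0.0313), 0.20 without control 3 (unadjusted limma p 0.291) and 0.12 with array weights (unadjusted limma p 0.514).

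Of the binding proteins, Ltbp1 (chromosome 17, 75005568 to 75392512, plus strand) tethers the latent complex to matrix. It was read at 138, 178 and 69.5 RPM in controls and 110.3, 161 and 66.0 RPM in mutants. As for Tgfb3, control 3 and mutant 3 were the low libraries. The log2 change was -0.18 (SE 0.42, interval -1.17 to 0.82, unadjusted limma p 0.684). Ltbp3 (chromosome 19, 5740904 to 5758532, plus strand) also binds latent TGF-beta, and its loss is known to impair enamel. It was read at 401, 497 and 249 RPM in controls and 406, 399 and 266 RPM in mutants, again with the litter 2 libraries lowest. This gave a log2 change of -0.07 (SE 0.30, interval -0.78 to 0.64, unadjusted limma p 0.828).

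Ltbp2 (chromosome 12, 84783212 to 84876532, minus strand) is the binding protein that does not bind latent TGF-beta itself and is instead a component of fibrillin microfibrils (its promoter window, printed above, is the one with a single GC box). It was read at 20.04, 27.1 and 21.9 RPM in controls and at 14.6, 10.98 and 16.2 RPM in mutants. Every mutant was below every control, in both litters. The means were 23.0 ± 3.69 RPM in controls and 13.9 ± 2.67 RPM in mutants. The log2 change was -0.69 (SE 0.20, 95% interval -1.15 to -0.23, unadjusted limma p 0.00943), and the adjusted p of 1.00 (limma, Benjamini-Hochberg) did not pass. Over all tested genes, 1.67% had every mutant below every control. Litter 1 gave a change of -0.83 and litter 2 one of -0.41. It stayed between -0.83 and -0.54 in the 22 alternative analyses, with an unadjusted limma p of 0.00483 to 0.0396 and an adjusted p of 0.925 to 1.00. The value rested on 330 to 776 reads per library, for which counting alone gives a coefficient of variation of at most 5.50%. The summed markers of each cell type listed overlapped between the genotypes: odontoblast markers summed to 1764 to 6060 RPM in controls and 479 to 8214 RPM in mutants, and osteoblast markers to 1026 to 2064 RPM and 524 to 1978 RPM. Single markers did separate by genotype, all lower in every mutant: 2 of 8 for dental mesenchyme (Lhx8 and Twist1), 1 of 6 for osteoblasts (Ibsp) and 1 of 4 for glia (S100b). The osteoblast marker Ibsp, a bone matrix gene, was read at 35.5, 65.9 and 154 RPM in controls and 29.9, 23.6 and 25.7 RPM in mutants (log2 change -1.41, unadjusted limma p 0.0195). Lhx8, a dental mesenchyme transcription factor, had a log2 change of -0.46 (unadjusted limma p 0.0180) and Twist1 one of -0.38. With overlapping genotypes, Spp1 (-3.05) and Lhx6 (-0.54) were also negative at an unadjusted limma p under 0.05. The part of these cell types in the Ltbp2 difference was not tested.

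Tgfbi (chromosome 13, 56609523 to 56639562, plus strand) was read at 403, 582 and 197 RPM in controls and 263, 391 and 464 RPM in mutants. Means were close, 394 ± 193 RPM in controls and 373 ± 102 RPM in mutants, and the log2 change was 0.02 (SE 0.41, interval -0.96 to 0.99, unadjusted limma p 0.970). Its libraries did not order by genotype or by litter. Within litter 1 both mutants were below both controls, by 0.59 on average on the log2 scale, and in litter 2 the mutant was above its control by 1.23. The difference between these changes was 1.83 (SE 0.51, unadjusted limma p 0.0112 for the interaction of litter and genotype, adjusted p 0.750). At an unadjusted p under 0.05 that interaction was called in 5.06% of all genes, and in 1 of these 10. Litter 2 gave 1 library per genotype, so the litter 2 change has no replicate.

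**Figure D2:**
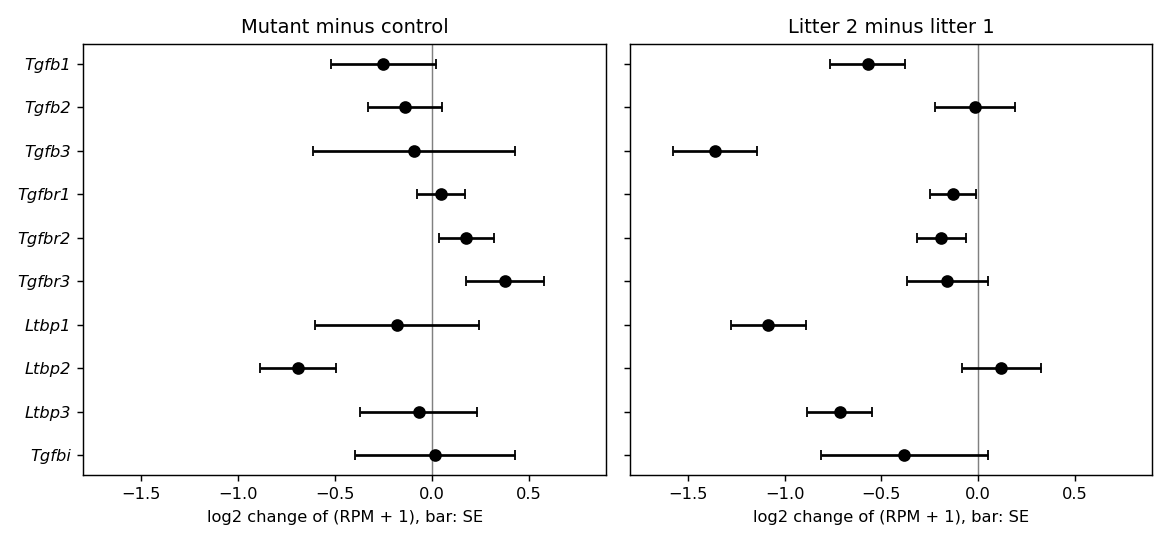
Log2 change of (RPM + 1) for each gene with its standard error, mutant minus control and litter 2 minus litter 1. The 95% interval of the genotype change includes 0 for every gene except Ltbp2 (-0.69), and the litter change is farthest from 0 for Tgfb3 (-1.36) and Ltbp1 (-1.08).

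Of the genotype and litter changes fitted over all libraries, the largest among the 10 genes lay between the litters. With genotype in the model, 4 of the 10 genes, Tgfb1, Tgfb3, Ltbp1 and Ltbp3, were lower in litter 2 at an unadjusted p under 0.05, and 0 passed adjustment (limma, Benjamini-Hochberg). Such low values were common: 13.7% of all tested genes were lower in litter 2 at that threshold and 7.21% were higher, and 0.872% passed adjustment. Among all genes called at that threshold the higher share was 34.4% on the deposited scale, against 47.2% with median-of-ratios, 44.9% with upper-quartile and 48.7% with quantile scaling. The direction of the 4 genes was the same under each of these scalings. Of the 10 genes, 9 had a negative litter change, with a median of -0.29 against -0.03 over all genes. The 4 genes were also those whose litters did not overlap, all with litter 2 below litter 1, which held for 20.5% of all genes. Litter 2 was 2 libraries, and litter, animal and dissection cannot be told apart.

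Tgfb3 differed most. Its 4 litter 1 libraries lay at 320.4 to 492 RPM and its 2 litter 2 libraries at 143 and 159.8 RPM, a 2.57-fold difference (log2 change -1.36, SE 0.22, unadjusted limma p 0.000569). Its adjusted p was 0.0519 by limma with Benjamini-Hochberg adjustment and ranged from 0.0184 to 0.282 over 19 alternatives, 4 of which were under 0.05. Among these, leaving out control 1 gave 0.0488, and for litter the fits without a library were added after the data were seen. Ltbp1 lay at 110.3 to 178 RPM in litter 1 and at 66.0 and 69.5 RPM in litter 2, which was 2.12-fold lower (log2 change -1.08, SE 0.20, unadjusted limma p 0.00113, adjusted p 0.0656). Over 19 alternatives the adjusted limma p of Ltbp1 was between 0.0177 and 0.379, and without mutant 1 it was 0.0471. Ltbp3, which lay at 399 to 497 RPM in litter 1 and at 249 and 266 RPM in litter 2, was 1.64-fold lower (log2 change -0.72, SE 0.17, unadjusted limma p 0.00459, adjusted p 0.105). Without control 3 its unadjusted limma p was 0.0629. For these 3 genes, control 3 and mutant 3 lay close together.

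Tgfb1 differed less, with 166 to 205 RPM in litter 1 and 156 and 96.0 RPM in litter 2 (log2 change -0.57, SE 0.19, unadjusted limma p 0.0225, adjusted p 0.175). Most of this lay in mutant 3: without it the log2 change was -0.24 with an unadjusted limma p of 0.321, and without control 3 it was -0.91. The other 6 genes overlapped between litters. Their log2 changes were -0.02 for Tgfb2, -0.13 for Tgfbr1, -0.19 for Tgfbr2, -0.16 for Tgfbr3, 0.12 for Ltbp2 and -0.38 for Tgfbi, with unadjusted limma p-values from 0.182 to 0.943. Without mutant 3 the litter change of Tgfbi was -1.30 (unadjusted limma p 0.0105), and without control 3 it was 0.53.

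**Figure D3:**
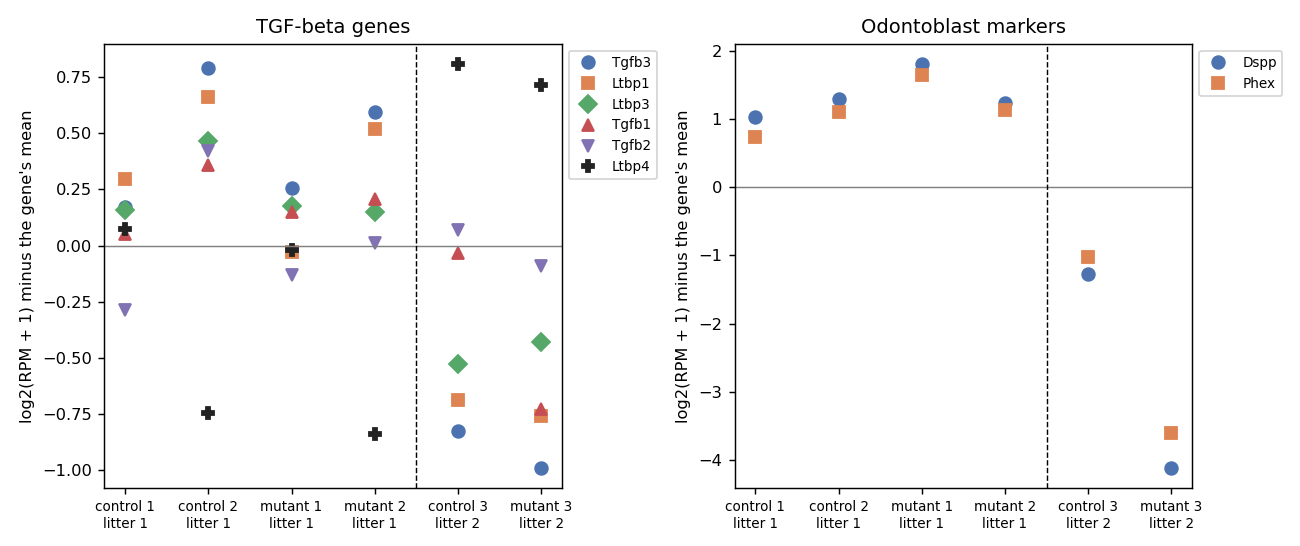
Log2(RPM + 1) of Tgfb1, Tgfb2, Tgfb3, Ltbp1, Ltbp3 and Ltbp4 (left) and of the odontoblast markers Dspp and Phex (right). The other odontoblast markers of the list are not shown. Each value is minus the gene's own mean over the 6 libraries (vertical axis), with litter 2 (control 3 and mutant 3) to the right of the dashed line. Tgfb3, Ltbp1 and Ltbp3 lie below 0 in both litter 2 libraries, Ltbp4 lies above 0, and Dspp is lower in mutant 3 (113 RPM) than in control 3 (817 RPM).

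Several odontoblast markers and all erythroid markers separated by litter. The 5 odontoblast markers summed to 5063 to 8214 RPM in litter 1 and to 1764 and 479 RPM in control 3 and mutant 3, and 3 of 5 did not overlap, all lower in litter 2: Dspp, the main dentin matrix gene, Phex and Nes. The other 2 went the other way, with overlap: the litter change was 1.15 for Smpd3 (unadjusted limma p 0.00663) and 1.80 for Dmp1 (unadjusted limma p 0.0447), so the sum does not stand for the whole list. Dspp was at 4032 to 6872 RPM in litter 1, at 817 RPM in control 3 and at 113 RPM in mutant 3. In control 3 and mutant 3, Phex was at 113 and 18.2 RPM and Nes at 288 and 164 RPM. The 5 erythroid markers, all higher in litter 2 without overlap, summed to 230 to 587 RPM in litter 1 and to 773 and 2521 RPM in litter 2. The summed enamel epithelium markers overlapped between litters, at 2339 to 49721 RPM in litter 1 and 20594 and 39321 RPM in litter 2, although 3 of 11 were higher without overlap. The 6 macrophage and osteoclast markers summed to 268 to 448 RPM in litter 1 and 242 to 261 RPM in litter 2, 3 of 6 being lower without overlap. Of the 8 dental mesenchyme markers, Msx1 was lower in litter 2 (-1.16, unadjusted limma p 0.00574) and Prrx1 higher (0.57, unadjusted limma p 0.0276), both without overlap. Over all tested genes, 20.5% were lower in litter 2 without overlap, and the share higher without overlap was not counted. With the mean enamel marker level as a covariate, an analysis added once the data were known, the litter change was -1.22 for Tgfb3 (unadjusted limma p 0.00296), -0.87 for Ltbp1 (0.00156), -0.65 for Ltbp3 (0.0113) and -0.64 for Tgfb1 (0.0334), and 0 of the 4 passed adjustment. The part of these cell types in the litter differences was not tested.

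The litters also differed in the makeup of the ligands and of the binding proteins, given here as shares of each family's summed RPM per kilobase. Tgfb3 made up 49.3% to 53.8% of ligand RNA in litter 1, against 32.8% in control 3 and 38.8% in mutant 3. Tgfb2 took 10.2% to 11.8% in litter 1 and 17.4% and 20.6% in litter 2. Tgfb1 took 34.7% to 40.0% in litter 1, 49.8% in control 3 and 40.6% in mutant 3. The leading ligand was therefore Tgfb3 in the litter 1 libraries and Tgfb1 in the litter 2 libraries, per length of the longest transcript. With the length of all exons, Tgfb3 led in all 6 libraries, at 64.9% to 68.7% in litter 1 and 47.1% to 52.1% in litter 2.

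Among binding proteins the 4th family gene, Ltbp4, was measured as well, although it is not among the 10 and was picked out after its values were seen. Ltbp4 binds latent TGF-beta weakly and is known for elastic fibre assembly. It was read at 196, 111 and 326 RPM in controls and 183, 103 and 306 RPM in mutants, higher in both litter 2 libraries than in any of litter 1 (log2 change 1.14, SE 0.30, unadjusted limma p 0.00815, adjusted p 0.129). Ltbp3 made up 56.3% to 65.1% of binding protein RNA in litter 1 and 39.3% and 42.6% in litter 2. Ltbp4 made up 13.97% to 26.4% in litter 1 and 49.5% and 47.2% in litter 2, where it led. Ltbp1 took 12.6% to 19.8% and then 8.53% and 8.22%. Ltbp2 took 1.33% to 2.73% over the 6 libraries. The receptors showed no such shift, and Tgfbr2 held 58.3% to 61.7% of receptor RNA in every library.

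**Figure D4:**
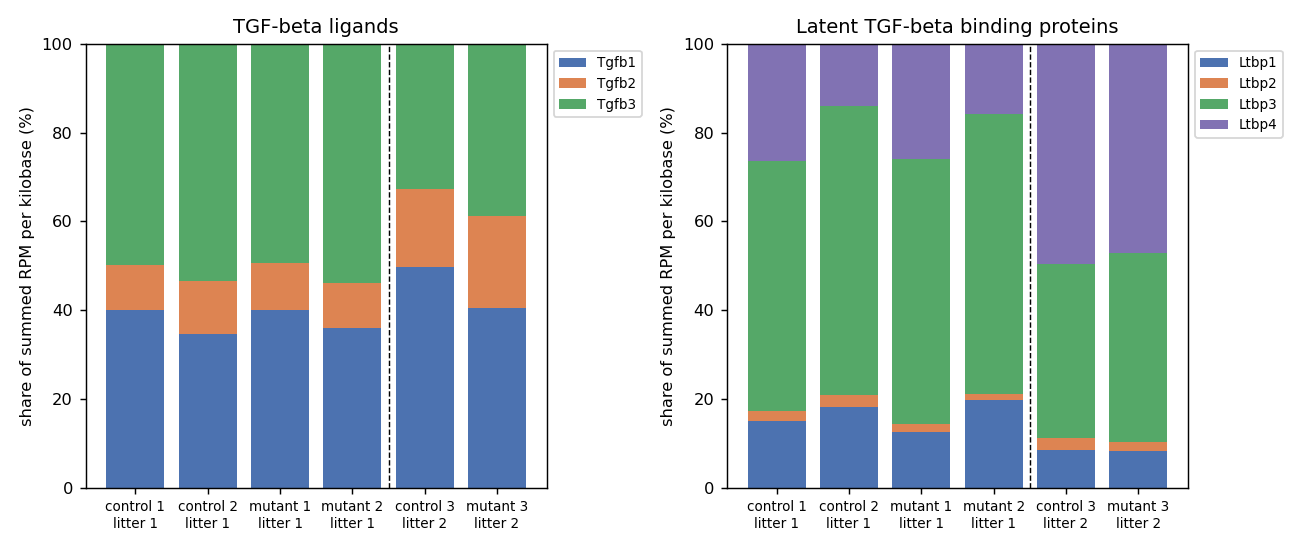
Share of the summed RPM per kilobase (percent, vertical axis from 0 to 100) taken by each TGF-beta ligand and by each latent TGF-beta binding protein in each library, with litter 2 to the right of the dashed line. Tgfb3 takes 49.3% to 53.8% of ligand RNA in litter 1 and 32.8% and 38.8% in litter 2, and Ltbp4 takes 47.2% to 49.5% of binding protein RNA in litter 2.

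The width of each gene's range over the 6 libraries, on the log2(RPM + 1) scale, was 1.78 for Tgfb3, 1.56 for Tgfbi, 1.42 for Ltbp1, 1.23 for Ltbp2, 1.09 for Tgfb1, 0.99 for Ltbp3, 0.87 for Tgfbr3, 0.71 for Tgfb2, 0.46 for Tgfbr2 and 0.27 for Tgfbr1. Likeness of pattern was measured as the root mean square difference between log2 values centred on each gene's mean, over 6 libraries, as a description. This measure is small for any genes that vary little, and its smallest value, 0.11, was that of Tgfbr1 and Tgfbr2, which had the narrowest ranges. Next were Tgfb3 and Ltbp1, both of wide range, at 0.18, Tgfbr2 and Tgfbr3 at 0.20, Tgfb1 and Ltbp3 at 0.24 and Ltbp1 and Ltbp3 at 0.25. The least alike were Tgfb3 and Ltbp2, at 0.80. Outside the 10, the genes nearest to Tgfb3 were Fgfr1, a fibroblast growth factor receptor, and the scaffold gene Magi2, at 0.08 each. Fgfr1 was read at 1035, 1646 and 557 RPM in controls and 1046, 1283 and 498 RPM in mutants. Nearest to Ltbp1 were Bcl2, which blocks apoptosis, and Lrrc16b, at 0.06 each. Nearest to Tgfbi were Vstm2b at 0.08 and Fgfr4 at 0.11, the latter at 0.671 to 3.57 RPM.

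The rest of the pathway was counted from 4 lists. Of 16 genes for storage and activation of the ligand, 1 was lower in mutants at an unadjusted p under 0.05 and 0 were higher, against 0.692% lower and 1.05% in either direction over all tested genes. The median log2 change of the list was -0.09. That gene was Fbn2, which encodes fibrillin-2 of the microfibrils on which binding proteins sit. Fbn2 was read at 373, 325 and 263 RPM in controls and 218, 234 and 252 RPM in mutants, every mutant below every control (log2 change -0.43, SE 0.18, unadjusted limma p 0.0455). Litter 1 gave a change of -0.62 and litter 2 one of -0.06. Furin, the protease that cuts the ligand precursor, was next at 268, 176 and 189 RPM in controls and 312, 234 and 359 RPM in mutants (log2 change 0.52, SE 0.24, unadjusted limma p 0.0635). Neither passed adjustment (limma, Benjamini-Hochberg, adjusted p 1.00 for both), and the count of called genes in this list ranged from 0 to 3 over the alternatives. With litter as a block it was 3 of 16, all lower in mutants, against 2.02% of all genes in either direction: Fbn2 (unadjusted limma p 0.0409), the fibrillin-1 gene Fbn1 (-0.41, 0.0444) and Lrrc32 (-0.43, 0.0460), a cell-surface anchor of latent TGF-beta, and 0 passed adjustment.

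Of 14 measured co-receptors and receptor regulators, 0 were under an unadjusted limma p of 0.05 in either direction, with 12 negative changes, 2 positive and a median of -0.10. The smallest p-values were those of Bambi, a decoy receptor, and Eng, the endothelial co-receptor endoglin. Bambi was read at 205, 282 and 458 RPM in controls and 194, 219 and 229.5 RPM in mutants, with control 3 well above the rest (log2 change -0.48, SE 0.29, unadjusted limma p 0.140). Eng had a log2 change of -0.19 (unadjusted limma p 0.345). Of 9 Smads and nuclear partners, 0 were called, with a median of -0.01. Smad7, the inhibitory Smad that TGF-beta signalling induces, was read at 39.7, 43.8 and 33.9 RPM in controls and 34.1, 35.4 and 23.1 RPM in mutants. Mutants were below the controls of their own litter, and the log2 change was -0.35 (SE 0.20, unadjusted limma p 0.121). With litter as a block its unadjusted limma p was 0.0272, under the threshold of 0.05 that 2.02% of all genes passed in that fit. Tgif2, a corepressor, had a log2 change of 0.24 (unadjusted limma p 0.181).

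Of 14 tested response genes, 0 were called for genotype, with 4 positive and 10 negative changes and a median of -0.13. The smallest p-values were those of Timp1, a protease inhibitor (log2 change -0.56, SE 0.30, unadjusted limma p 0.102), and Klf10, an early TGF-beta response gene (0.29, SE 0.18, unadjusted limma p 0.151). Between litters, 3 of 14 response genes were under an unadjusted p of 0.05, 2 higher and 1 lower in litter 2. Over all genes, 7.21% were higher and 13.7% lower. The 3 response genes are named here after their values were seen. Fn1, fibronectin, to which latent complexes bind, was at 522 to 765 RPM in litter 1 and at 419 and 308 RPM in litter 2 (log2 change -0.79, SE 0.18, unadjusted limma p 0.00360, adjusted p 0.0968). Acta2 and Tagln, contractile genes that are also high in smooth muscle, were higher in litter 2, by 0.78 and 0.89 on the log2 scale (adjusted limma p 0.0672 and 0.0696). The other lists gave Ltbp4 and the integrin gene Itgb5 (0.82) as higher and Fbn1 (-0.46) as lower among storage genes, Strap (0.40) as higher among receptor regulators and Smad7 (-0.43) as lower among Smads. These were 3 of 16, 1 of 14 and 1 of 9 genes, again against 7.21% higher and 13.7% lower over all genes. None of these passed adjustment in limma.

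**Figure D5:**
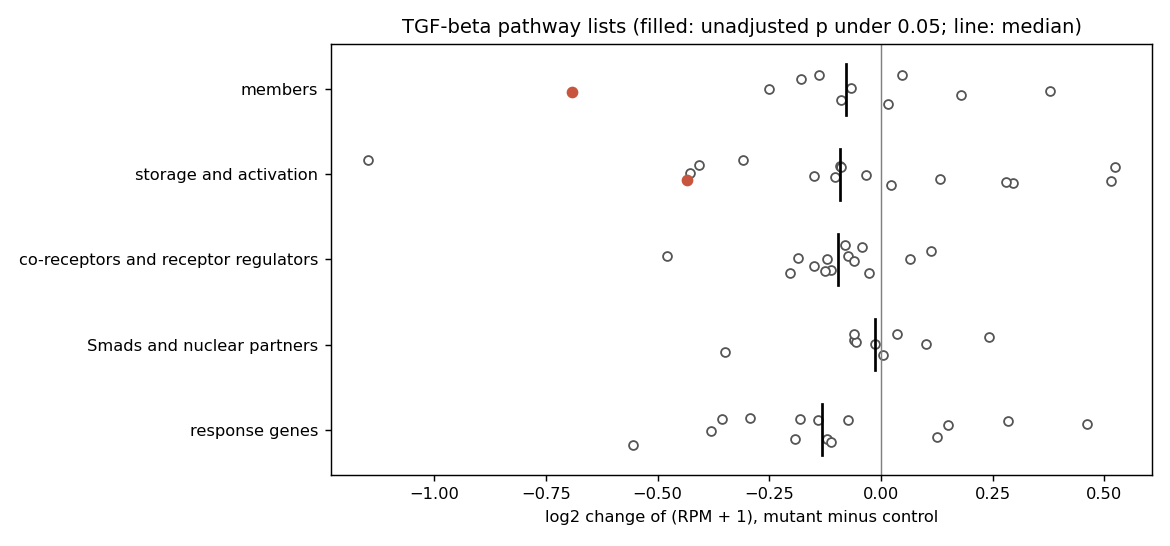
Log2 change of (RPM + 1), mutant minus control (horizontal axis), for the 10 genes (labelled members) and the tested genes of 4 TGF-beta pathway lists, each point a gene and each vertical line a median. Filled points have an unadjusted p under 0.05 and are Ltbp2 (-0.69) and Fbn2 (-0.43), and the medians of the 4 lists lie between -0.13 and -0.01.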

How the data were processed

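Per the labels' protocols, total RNA was used to make poly(A) libraries for an Illumina NextSeq instrument. The submitters' processing notes name TopHat2 and mm10. The counting program and gene annotation are not given in the sources used here. The table that the authors deposited is named as RPKM, but its unit is a log2 value. Raised as powers of 2, 100% of values were whole multiples (within 0.02 reads) of 1 step per column, shared by all genes, so length had not been divided out and the values were treated as log2 RPM, reads per 1000000 mapped reads. Genes without reads hold 0.9 of a read. Dividing by the step gave reads. Limits from reads cover counting error only, since reads are not independent molecules.

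Those 14444 genes whose mean reached 1 RPM entered limma 3.58.1 (R 4.3.3) as log2(RPM + 1), by lmFit and eBayes with trend, two-sided, with Benjamini-Hochberg adjustment over all of them. The log2(RPM + 1) scale understates changes of low genes. The planned test assumed linear values, so the log2 values were first made linear. The genotype fit had no covariate, the litter fit had genotype, and the interaction fit both. The genotype fit was tested on simulated independent counts without a litter effect, and the litter and interaction fits were not tested in this way. Replicate numbers come from the table's columns. The deviations of same-numbered libraries had correlations of -0.03, 0.75 and 0.50 for numbers 1, 2 and 3. Number 3 is also the litter 2 pair, so whether the numbers pair the libraries is not settled, whereas the labels give litter. Levels per kilobase used GENCODE M21 lengths.

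The genes, lists and tests were chosen with earlier results of these data known. All 10 genes are named, with the listed genes under an unadjusted p of 0.05 for genotype or, where fewer than 2 are, the 2 with the smallest p. Also named are the 2 nearest genes for each of the 3 widest patterns. Alternatives varied the pseudocount, filter, scaling, variance model, weights, blocks, covariate and libraries. Further alternatives for litter, among them array weights and leaving out a library, were added after the data had been seen. The estimate of array weights gave a convergence warning in an alternative. A listed marker gene is not reported here.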

Additional observations from a re-analysis of the deposited data

Results flagged for a closer look

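In 2 of the 10 genes every mutant of litter 1 moved one way from both its controls while the mutant of litter 2 moved the other way, a pattern that 18.2% of all tested genes showed. For Tgfbi the genotype change was -0.59 in litter 1 and 1.23 in litter 2, a difference of 1.83 (unadjusted limma p 0.0112, adjusted p 0.750). For Tgfbr1 it was 0.11 in litter 1 and -0.08 in litter 2, a difference of -0.20 (unadjusted limma p 0.458, adjusted p 0.910). Neither difference passed adjustment, and litter 2 has 1 library per genotype.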

How the results depend on the processing

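Ltbp2 kept its direction and an unadjusted p under 0.05 for genotype in 22 of 22 alternatives, and Tgfb3 and Ltbp1 did so for litter in 19 of 19. Ltbp3 did in 18 of 19 and Tgfb1 in 14 of 19. Tgfbr2 and Tgfbr3 kept a positive genotype change in 22 of 22, with 0.092 to 0.22 and 0.20 to 0.55 when 1 library was left out. The signs of the other 7 genotype changes depended on the setting: array weights turned Tgfb2 (0.063) and Tgfbi (-0.14), litter 1 alone turned Tgfbi (-0.59), and the enamel covariate turned Tgfb3 (0.18), Ltbp1 (0.087) and Ltbp3 (0.073). Leaving out 1 library gave -0.32 to 0.038 for Tgfb2, -0.53 to 0.38 for Tgfb3, -0.57 to 0.16 for Ltbp1, -0.35 to 0.15 for Ltbp3, -0.42 to 0.36 for Tgfbi, -0.0099 to 0.12 for Tgfbr1 and -0.42 to 0.052 for Tgfb1. The litter change of Tgfb2 turned with median-of-ratios (0.032) and upper-quartile scaling (0.024), the enamel covariate (0.090) and voom (0.0023), and that of Tgfbi with the enamel covariate (0.15). Leaving out 1 library gave litter changes of -0.17 to 0.13 for Tgfb2, -1.30 to 0.53 for Tgfbi, -0.53 to 0.21 for Tgfbr3 and -0.090 to 0.33 for Ltbp2. The cause was not tested.

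The 152 genes under an unadjusted p of 0.05 for genotype became 344 with no filter, 319 when litter 2 was left out, 309 with array weights, 353 with the enamel covariate and 68 to 325 without 1 library, and those under an adjusted p 0 to 1. With litter as a block they were 292, and with the replicate number as a block, for which pairing is not settled, 524. Of the 10 genes, 1 to 2 were called without 1 library. The storage list (1) gave 0 with no filter, 2 with quantile scaling and the enamel covariate, 3 with array weights, the litter block and litter 1 alone, and 0 to 2 without 1 library. The co-receptor list gave 0 to 1 without 1 library, and the Smad list 1 with the litter block and 1 with the replicate block. For litter, the 126 genes past adjustment became 2 with no filter, 0 with median-of-ratios scaling, the enamel covariate and voom, 1 with upper-quartile and 4 with quantile scaling, 204 with robust variances, 1209 with array weights and 0 to 371 without 1 library. Those at an unadjusted p under 0.05 became 4615 with array weights and 1393 to 4248 without 1 library. Of the 10 genes, the adjusted litter count of 0 became 1 with a mean of at least 5 or robust variances, 3 with array weights and 0 to 1 without 1 library.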
